A study of Rattus norvegicus with 45 samples.

Results

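The feedback regulators of the extracellular signal-regulated kinase (ERK) cascade were followed across 3 brain regions of rats given an antipsychotic drug or vehicle. They comprise the phosphatase genes Dusp1, Dusp4, Dusp5 and Dusp6, the inhibitor genes Spry1, Spry2, Spry3, Spry4 and Spred1, and the transcription factor gene Etv5. They were measured by all probe sets of the Affymetrix rat array whose annotated gene symbol is one of these 10 genes, which held for 13 of 31099 probe sets. These cover 9 of the 10 genes, among 14218 genes named on the array, and no probe set carried the symbol Spred1, which was therefore not analysed here. The genes were picked with drug values of these same arrays in view, so all values of a drug against vehicle are given as a description. Differences between the brain regions of vehicle rats were not used to pick the genes and were tested. The same vehicle rats entered the drug differences, however, so their levels are not wholly independent of that choice.

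RNA came from 15 male Sprague-Dawley (SD) rats that received subcutaneous osmotic minipumps when 9 to 11 weeks old (by the series text, while the methods word the age differently). For 21 days the pumps delivered vehicle (dilute acetic acid in water) to 5 rats, haloperidol at 0.25 mg/kg/d to 5 rats and risperidone at 5 mg/kg/d to 5 rats. Haloperidol is a dopamine receptor antagonist, and risperidone acts on serotonin receptors too. Striatum, frontal cortex and hippocampus of every rat were each hybridized to 1 array, which gave 45 arrays in 9 groups of 5. The sample labels call the tissue mouse brain while naming the rat as the organism, and the arrays are rat arrays. Values are log2 intensities of data normalized by the Robust Multi-array Average (RMA) method, so that a difference of 1 is a doubling.

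ERK is switched on by growth factors, neurotrophins and calcium entry through a relay of Ras, Raf and MEK. Active ERK induces genes that turn it off again: the Dusp phosphatases remove the activating phosphates from ERK and related kinases, and the Sprouty (Spry) and Spred proteins dampen the signal upstream, between the receptor, Ras and Raf. Etv5 is an ETS-family transcription factor whose gene is a well-known readout of growth factor signaling through ERK. In neurons several of these genes respond within a short time to synaptic activity.

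The sequence just before the start site is shown for the 5 genes whose values carry the results below, because members that respond to the same cascade differ in the elements found there. Sequences are from RefSeq (assembly GRCr8), each covers the 130 bases before the annotated start on the strand of the gene, and all 5 genes lie on the plus strand. The positions are chr10:17184723-17184852 for Dusp1, chr1:262543644-262543773 for Dusp5, chr7:35979474-35979603 for Dusp6, chr12:21782127-21782256 for Spry3 and chr11:92113133-92113262 for Etv5. Capitals mark letters that match one of 6 motifs searched on both strands.
Dusp1: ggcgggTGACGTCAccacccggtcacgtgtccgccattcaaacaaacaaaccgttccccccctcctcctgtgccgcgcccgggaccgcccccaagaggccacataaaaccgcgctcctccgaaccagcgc
Dusp5: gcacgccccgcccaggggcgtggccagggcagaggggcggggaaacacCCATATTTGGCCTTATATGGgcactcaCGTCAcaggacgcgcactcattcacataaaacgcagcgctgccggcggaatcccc
Dusp6: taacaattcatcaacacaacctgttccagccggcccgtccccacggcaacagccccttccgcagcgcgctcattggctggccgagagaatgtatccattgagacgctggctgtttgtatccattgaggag
Spry3: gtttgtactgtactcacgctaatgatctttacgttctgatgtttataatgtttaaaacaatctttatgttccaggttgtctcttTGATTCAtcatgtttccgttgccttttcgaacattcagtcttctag
Etv5: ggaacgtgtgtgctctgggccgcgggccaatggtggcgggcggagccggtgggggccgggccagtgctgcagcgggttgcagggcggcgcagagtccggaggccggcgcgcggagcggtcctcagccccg

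The search covered windows from 250 bases before to 50 bases after a start site. A window was found for 8 of the 9 measured genes, and Dusp4 had none. The motifs were the cyclic AMP response element TGACGTCA (in 1.83% of 33465 windows), the part of it TGACG, which overlaps the whole element (21.2%), the CArG box bound by serum response factor (1.64%), the ETS site CCGGAA (15%), the AP-1 site TGANTCA (7.33%) and the EGR site GCGTGGGCG (0.544%). Dusp1 held the whole cyclic AMP response element, starting 124 bases before the start, and the shorter element at 172 bases. Dusp5 held a pair of neighboring CArG boxes that start 82 and 72 bases before it, followed by the shorter element in reverse at 55 bases. Past its start, at position 5, lay an ETS site in reverse. Spry3 held an AP-1 site 46 bases before its start. Among genes not printed, 1 of the 2 windows of Spry2 held the shorter element at 219 bases and an ETS site at 171. Spry4 held an ETS site in reverse at 81 bases. No motif of the 6 matched in the windows of Dusp6, Etv5 or Spry1. The printed stretch of Spry3 and its window were poor in G and C (37.3% of the window), against 57.7% for Dusp6, 68% for Dusp1, 69% for Dusp5, 73.3% for Etv5 and a median of 51.7% over all windows. Such matches describe the letters of a window, and no match says only that these letters were not found there.

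Of the 13 probe sets, 9 reached the 40th percentile by their mean over the 45 arrays and were tested among 18609 probe sets. These were 1 each for Dusp1, Dusp5, Spry2, Spry3, Spry4 and Etv5, and 3 for Dusp6. The other 4, a second probe set each of Dusp1 and Etv5 and the single ones of Dusp4 and Spry1, had means between 5.02 and 5.69, under the limit of 5.883, and their values are given without a test. Probe sets of 1 gene did not always track each other from rat to rat. After the mean of its group was taken from each array, the pair 1387024 and 1377064 of Dusp6 correlated at r = 0.86 over the 45 arrays, whereas 1382778 correlated with them at 0.33 and 0.08. The 2 probe sets of Dusp1 correlated at 0.70 and those of Etv5 at -0.09, where the weaker Etv5 probe set was near the bottom of the scale. These 45 arrays come from 15 rats, and the coefficients describe them only.

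Markers of striatum and of hippocampus were highest in the arrays labelled with those regions, and no list particular to frontal cortex was used. In vehicle rats the 8 measured striatal markers, among them the dopamine receptor genes Drd1 and Drd2, averaged 11.83 in striatum, 7.37 in frontal cortex and 7.07 in hippocampus. The 3 hippocampal markers averaged 10.02 in hippocampus and at most 8.16 elsewhere, and the 6 pyramidal neuron markers 9.60 in frontal cortex, 9.89 in hippocampus, but 6.81 in striatum. Median array intensities were 87.93 to 92.06 for striatum, 89.93 to 93.09 for frontal cortex and 106.7 to 110.4 for hippocampus. The median log2 difference of all tested probe sets was accordingly 0.25 for hippocampus minus frontal cortex, -0.30 for striatum minus hippocampus and -0.06 for striatum minus frontal cortex. Region differences are therefore given with each array centred on its median, which brings these shifts to -0.01, -0.03 and -0.05. Drug comparisons lie within a region and use the values as deposited.

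The first question was how the regulators are distributed over the regions without a drug. In vehicle rats Dusp6 was low in striatum, Dusp5 was high in hippocampus, Dusp1 was high in frontal cortex and Spry3 was low there, while Spry2 differed little. Of the 9 tested probe sets, 7 passed the threshold (adjusted p under 0.05 in limma and at least 1.2-fold) between striatum and frontal cortex, where 45.9% of all probe sets passed. In striatum 1 was higher and 6 lower, against 19.1% and 26.8% of all. Between hippocampus and frontal cortex 3 passed, 2 higher and 1 lower, against 31.7% of all (14.6% higher and 17.1% lower). Between striatum and hippocampus 6 passed, 1 higher and 5 lower in striatum, against 45.9% of all (20% higher and 26% lower). On the scale as deposited the counts were 7, 5 and 6, where 46.1%, 53.2% and 62.5% of all probe sets passed. The median centred difference of the 9 was -0.32, 0.13 and -0.27 in the same order. Since Dusp6 supplies 3 of the 9 probe sets, the counts weigh that gene more than the others. In whole tissue, fewer cells of a type and less RNA per cell cannot be told apart.

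**Figure D1:**
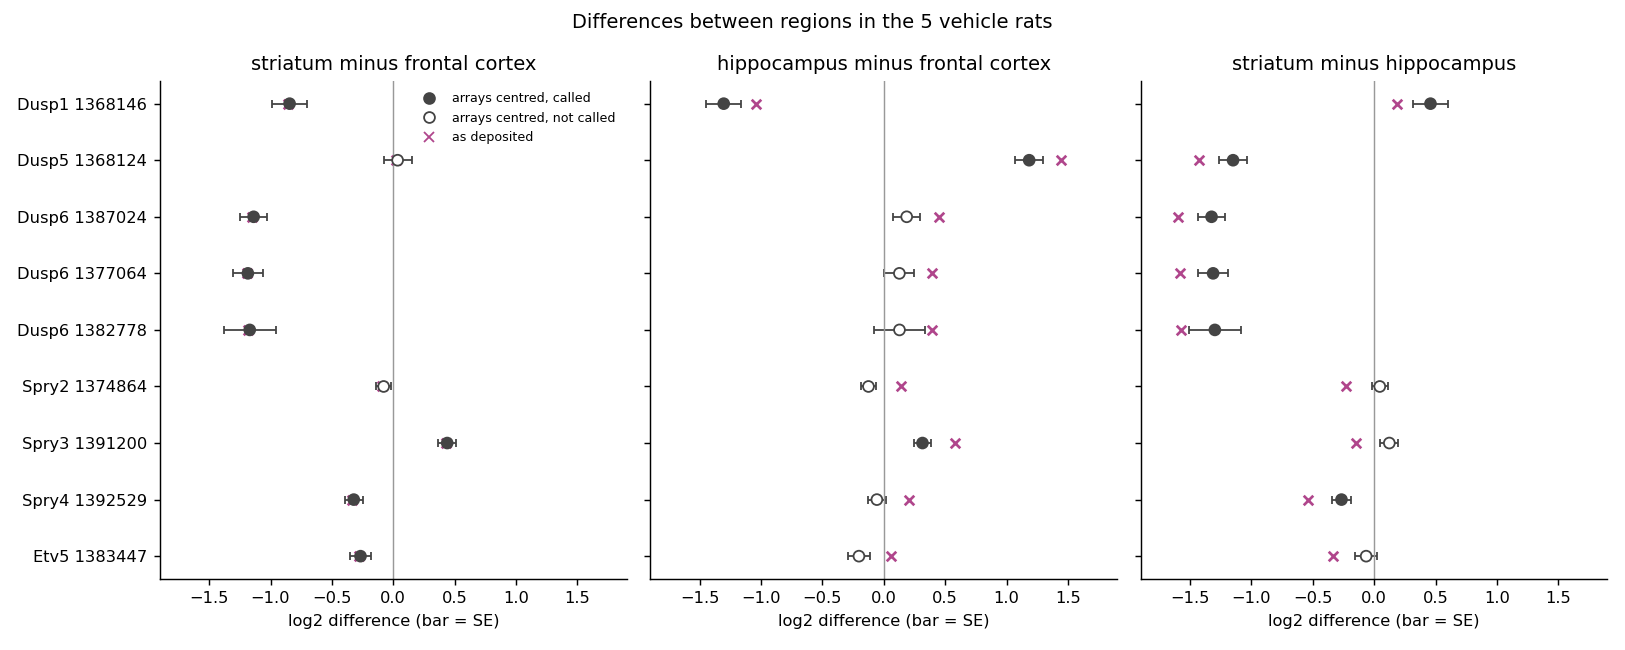
Log2 differences between regions in the vehicle rats (n = 5), with each array centred on its median, for the 9 tested probe sets of the ERK feedback regulators; the points show the estimated difference, bars its standard error, filled points passed the threshold, and crosses mark the difference on the scale as deposited. The 3 probe sets of Dusp6 lay between -1.32 and -1.14 in both comparisons with striatum, and Dusp5 lay at 1.18 for hippocampus minus frontal cortex.

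Dusp6 encodes a cytoplasmic phosphatase that acts on ERK with high selectivity. Its probe set 1387024 stood at 8.59, 8.02, 8.55, 8.57 and 8.63 in the striatum of vehicle replicates 1 to 5. The same rats gave 9.72, 9.40, 9.77, 9.59 and 9.62 in frontal cortex and 9.83, 10.06, 10.26, 10.22 and 9.98 in hippocampus. Every striatal value lay below every value of the other regions. The centred difference was -1.14 against frontal cortex (standard error 0.11, adjusted p = 5.32e-12) and -1.32 against hippocampus (standard error 0.11, adjusted p = 7.06e-14). The other probe sets gave -1.18 and -1.17 against frontal cortex and -1.31 and -1.30 against hippocampus. Hippocampus and frontal cortex did not differ past the threshold once arrays were centred (0.19, standard error 0.11, adjusted p = 0.153), although the difference as deposited was 0.45 (adjusted p = 4.02e-04). The order was therefore striatum below the other regions, whose own order was not resolved.

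Dusp5, a nuclear phosphatase of ERK, had the opposite kind of pattern, with 1 region standing high. In hippocampus the vehicle rats read 7.27, 7.55, 7.84, 7.59 and 7.13. Frontal cortex gave 5.96, 5.86, 6.34, 6.03 and 5.96, and striatum 5.84, 5.97, 6.27, 6.10 and 6.09. All hippocampal values exceeded all values of both other regions, by 1.18 against frontal cortex (standard error 0.11, adjusted p = 1.83e-11) and with a striatum minus hippocampus difference of -1.15 (adjusted p = 1.5e-11). Frontal cortex and striatum were 0.04 apart (adjusted p = 0.8), with a direction that turned in some alternatives. Dusp4, another nuclear phosphatase, was below the limit on low values. It read 5.56 to 5.90 in hippocampus, 4.99 to 5.27 in frontal cortex and 4.64 to 4.88 in striatum, without overlap between any of the 3 regions in the vehicle rats.

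Dusp1 encodes a phosphatase of ERK, p38 and JNK that is quickly induced by stress and activity. Vehicle rats gave 9.62, 8.92, 9.70, 9.08 and 9.20 in frontal cortex. The values were 8.84, 8.12, 8.20, 8.02 and 8.14 in hippocampus, and 8.44, 8.47, 8.80, 8.33 and 8.20 in striatum. Frontal cortex was higher than the other regions in every rat, and after centring its values overlapped with neither. Hippocampus minus frontal cortex came to -1.30 (standard error 0.14, adjusted p = 4.94e-10) and striatum minus frontal cortex to -0.84 (standard error 0.14, adjusted p = 2.32e-06). Striatum stood above hippocampus by 0.46 when centred (adjusted p = 0.00517), but by 0.19 as deposited (adjusted p = 0.238), so this last step of the order depends on the scale. The weaker probe set of Dusp1, which was not tested, had centred differences of -0.62 and -0.53 from frontal cortex.

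Of the Sprouty genes, Spry3 and Spry4 passed in comparisons of regions. Spry3 was lowest in frontal cortex, with 7.15, 7.21, 7.28, 7.02 and 7.05 in the vehicle rats. It read 7.66, 7.73, 7.69, 7.69 and 7.82 in hippocampus and 7.45, 7.57, 7.63, 7.58 and 7.61 in striatum. The centred difference from frontal cortex was 0.44 in striatum (standard error 0.07, adjusted p = 1.63e-06) and 0.32 in hippocampus (standard error 0.07, adjusted p = 3.95e-04), and striatum and hippocampus were not separated (0.12, adjusted p = 0.135). Spry4 was lower in striatum, with differences of -0.32 against frontal cortex (adjusted p = 2.26e-04) and -0.27 against hippocampus (adjusted p = 0.00185), with single rats of the groups overlapping. For Spry2 no region comparison passed the threshold when centred, with differences of -0.08, -0.12 and 0.05 and standard errors of 0.06. Spry1, too low to be tested, was 5.51 to 6.15 in striatum and 5.41 to 5.52 in frontal cortex, and after centring its striatal values lay above all frontal cortex values.

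Etv5 was lower in striatum than in frontal cortex. The vehicle rats gave 8.54, 8.58, 8.97, 8.62 and 8.54 in frontal cortex. They gave 8.20, 8.45, 8.54, 8.42 and 8.25 in striatum and 8.77, 8.61, 8.87, 8.67 and 8.65 in hippocampus. Striatum minus frontal cortex was -0.27 (standard error 0.09, adjusted p = 0.00847), with frontal cortex and striatum overlapping. As deposited, this call was lost without vehicle replicate 1 and without vehicle replicate 3 (difference from -0.31 to -0.24 over the 5 rats left out), and with the neighboring-tissue markers described below as a covariate (-0.22). Hippocampus minus frontal cortex was -0.20 (adjusted p = 0.056) and striatum minus hippocampus -0.07 (adjusted p = 0.532), although the latter was -0.34 and passed as deposited.

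**Figure D2:**
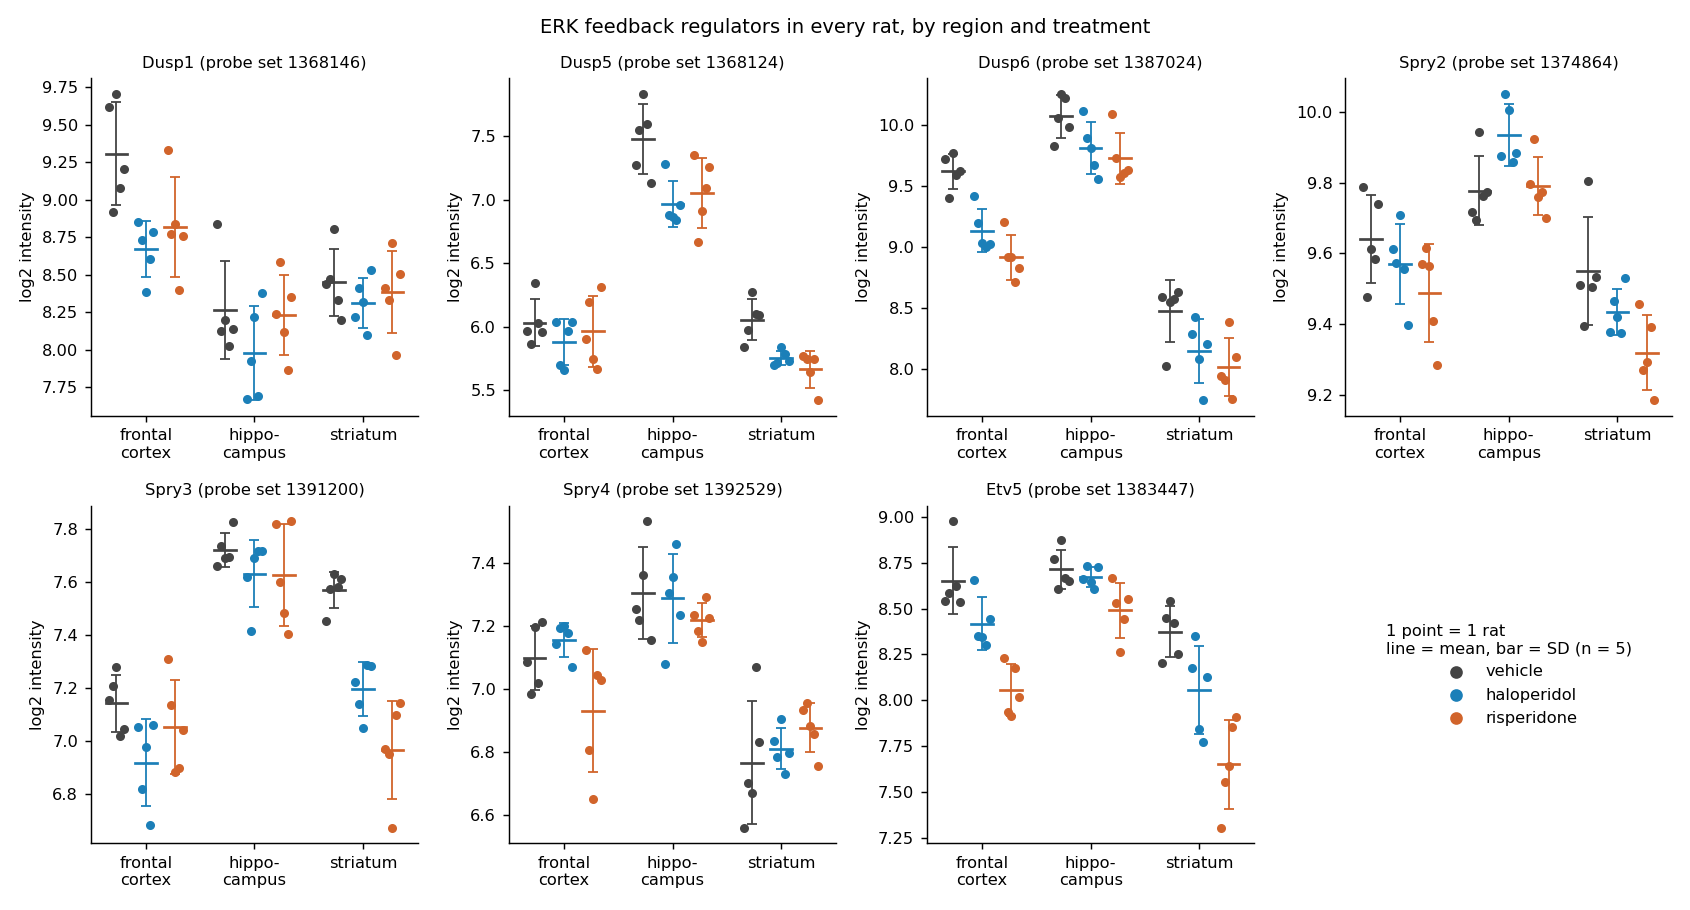
Log2 intensity as deposited in every rat (n = 5 per group) for the main probe set of each tested ERK feedback regulator, by region (x axis) and treatment (color), where lines are group means and bars the standard deviation. In frontal cortex the 5 risperidone rats lay below all vehicle rats for Dusp6 and Etv5, and in striatum for Dusp5, Spry3 and Etv5.

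One Dusp6 probe set, 1382778, had a level that went with the rat. Vehicle replicate 2 read 8.11, 8.80 and 7.15 in frontal cortex, hippocampus and striatum, the lowest vehicle value each time, while replicate 1 read 10.01, 10.17 and 8.69, the highest each time. Of the spread within groups, a share of 0.895 lay between rats (intraclass correlation over the 3 regions), above 99.6% of 31042 probe sets, whose median was 0.147. The share was 0.546 for 1377064 and 0.365 for 1387024. Values of 1382778 are less exact between groups of different rats, with a standard error of 0.24 for a drug difference against 0.12 for 1387024 and 0.14 for 1377064. 

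**Figure D3:**
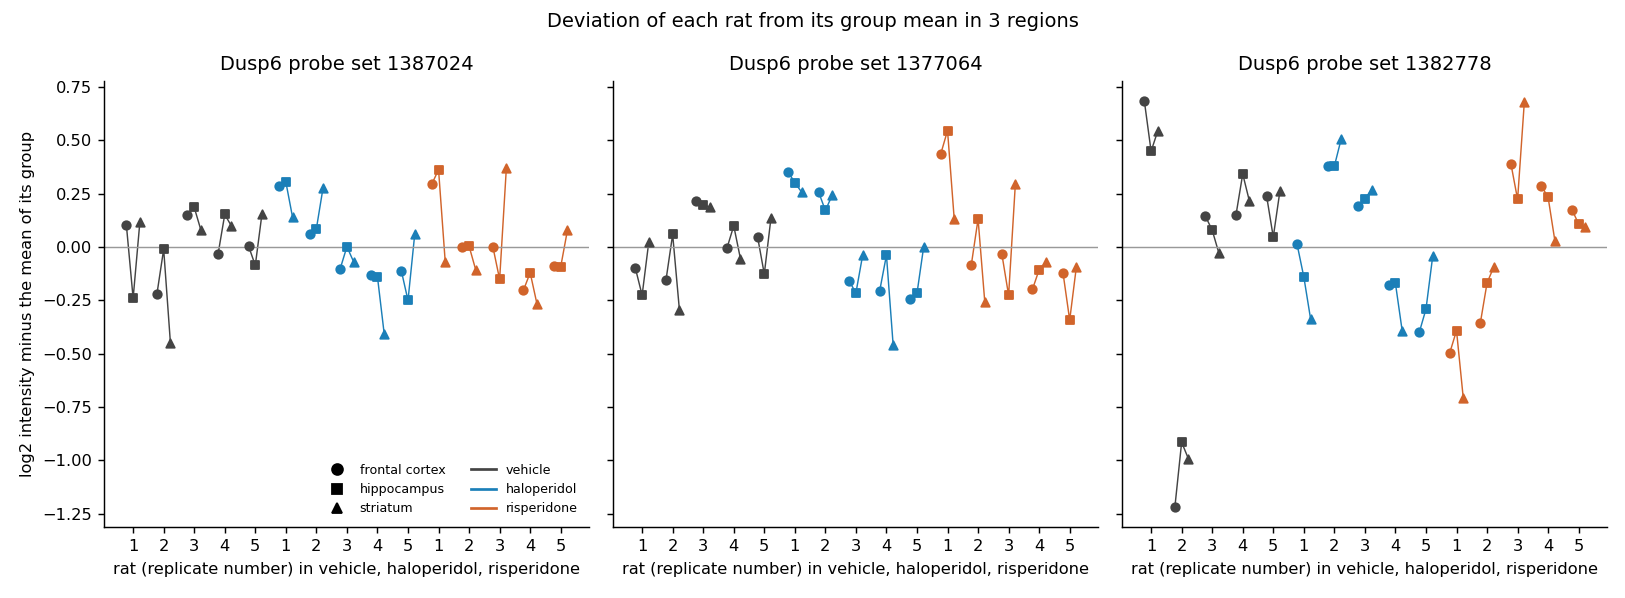
Log2 intensity of the 3 Dusp6 probe sets minus the mean of its region and treatment group (y axis) in each rat (x axis), with the 3 regions of a rat joined by a line and the rats grouped by treatment. In 1382778, vehicle replicate 2 was lowest of the vehicle rats in all 3 regions.

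The next question was how the regulators stood after each drug. Both drugs were set against the same 5 vehicle rats, so the comparisons share their controls. With risperidone, Dusp6 and Etv5 were lower in frontal cortex, Dusp6, Etv5 and Spry3 were lower in striatum, and no probe set of the genes passed the threshold in hippocampus. In frontal cortex all 9 tested probe sets had a difference below 0 (median -0.49, against 0.01 over all tested), and 4 passed as lower, where 1.89% of all probe sets did. In striatum 8 of 9 were below 0 (median -0.46, against -0.02 over all), and 4 passed as lower, where 2.76% of all did. In hippocampus 8 of 9 were below 0 (median -0.22, against 0.01), and none passed, where 0.0591% of all passed as lower. Because these contrasts chose the genes, nothing is read from the counts.

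**Figure D4:**
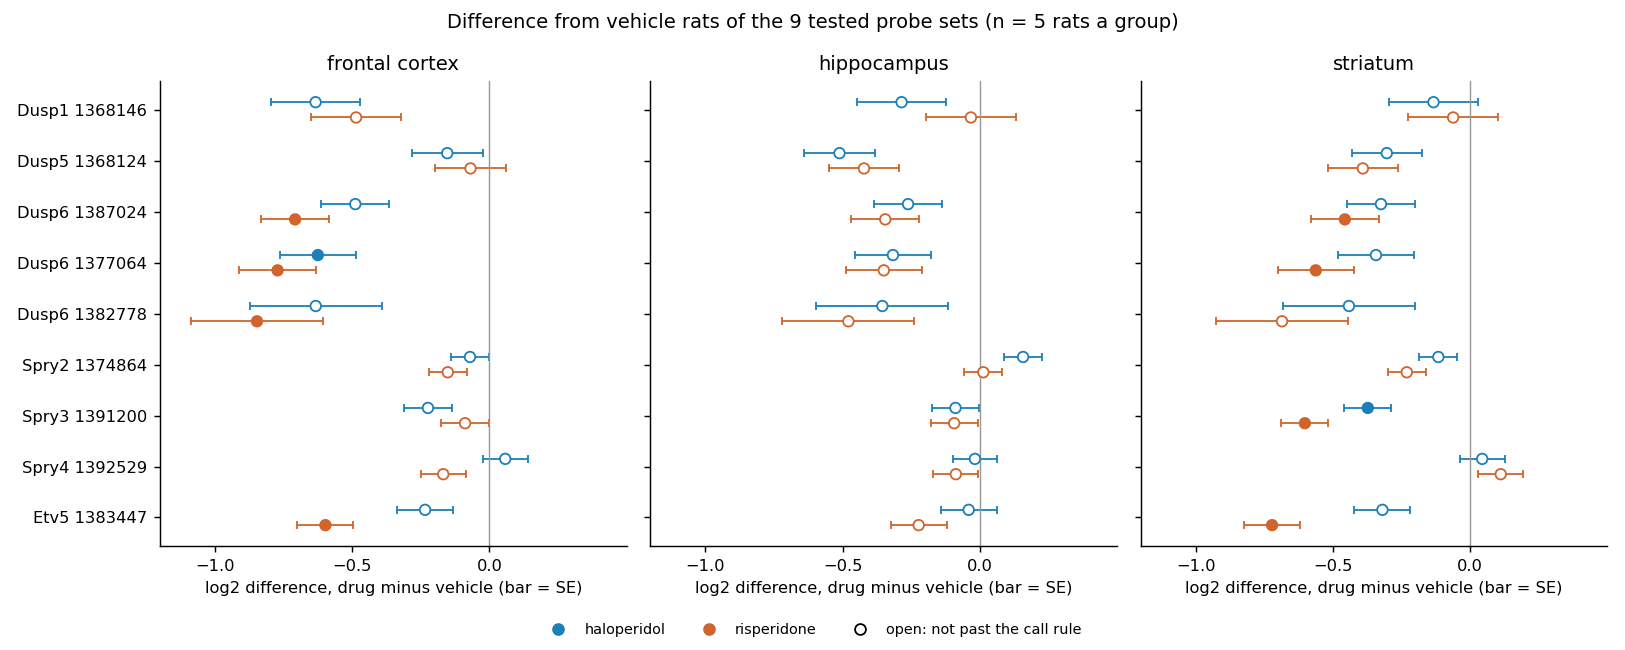
Log2 difference of each drug from vehicle (n = 5 rats per group) for the 9 tested probe sets of the ERK feedback regulators in each region, with bars for the standard error and filled points for those past the threshold. The values are a description, since the genes were chosen with these differences known. Etv5 stood at -0.60 in frontal cortex and -0.72 in striatum after risperidone, and at -0.23 and -0.32 after haloperidol.

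On Dusp6 1387024 in frontal cortex, the risperidone rats read 9.21, 8.91, 8.91, 8.71 and 8.82, all under the lowest vehicle rat at 9.40. Probe set 1377064 gave 8.97, 8.45, 8.50, 8.33 and 8.41 after risperidone and 9.20, 9.15, 9.52, 9.30 and 9.35 after vehicle. Neither pair of groups overlapped. The difference was -0.71 (standard error 0.12, 1.63-fold lower) for 1387024 and -0.77 (standard error 0.14, 1.71-fold lower) for 1377064, and both kept their call whichever of the 10 rats was left out. For 1382778 it was -0.85 (standard error 0.24) with overlapping groups. Its call was lost without risperidone replicates 1 or 2 or vehicle replicates 1, 3, 4 or 5, and without vehicle replicate 2 the difference was -1.15.

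In striatum Dusp6 also lay lower after risperidone, and single rats of the groups overlapped. Probe set 1387024 read 7.94, 7.91, 8.38, 7.75 and 8.09 after risperidone, where vehicle replicate 2 (8.02) lay within that range and the other vehicle rats above it. Its difference was -0.46 (standard error 0.12), with a call lost without any of 6 rats (risperidone 2 and 4, vehicle 1, 3, 4 and 5, from -0.57 to -0.39). Probe set 1377064 differed by -0.56 (standard error 0.14) and kept its call without each of the 10 rats. In hippocampus the 3 probe sets stood at -0.34, -0.35 and -0.48, with standard errors of 0.12, 0.14 and 0.24. There the risperidone values of 1387024, from 9.57 to 10.09, ran into the vehicle range of 9.83 to 10.26.

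Etv5 was lower after risperidone in frontal cortex and in striatum. Its frontal cortex values were 8.23, 7.94, 7.91, 8.18 and 8.02, under the lowest vehicle rat at 8.54, and its striatal values were 7.30, 7.56, 7.64, 7.85 and 7.91, under the lowest vehicle rat at 8.20. The difference was -0.60 in frontal cortex (standard error 0.10, 1.51-fold lower) and -0.72 in striatum (standard error 0.10, 1.65-fold lower). Both calls held without each of the 10 rats, with differences from -0.64 to -0.52 and from -0.79 to -0.64. In hippocampus the rats gave 8.67, 8.53, 8.26, 8.44 and 8.55, which overlapped with the vehicle values (difference -0.22, standard error 0.10). The second Etv5 probe set, low on all arrays, had a difference of 0.00 in frontal cortex.

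The 4 probe sets too low to be tested overlapped with vehicle in every drug comparison. Spry1 stood at 0.27 in frontal cortex after risperidone (standard error 0.12) and Dusp4 at 0.20 in striatum (standard error 0.09), both above vehicle. The second probe set of Dusp1 differed by -0.26, 0.02 and -0.24 after risperidone in frontal cortex, hippocampus and striatum, and by -0.45, -0.12 and -0.13 after haloperidol.

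Spry3 was the Sprouty gene with a called difference in striatum. After risperidone its striatal values were 6.97, 6.95, 6.67, 7.10 and 7.14, against 7.45 or more in every vehicle rat. The difference was -0.60 (standard error 0.09, 1.52-fold lower), and its call held without each of the 10 rats. In frontal cortex and hippocampus it was -0.09 in both, with standard errors of 0.09 and overlapping groups. Spry4 was the single tested probe set whose striatal difference lay above 0 (0.11, standard error 0.08), and Spry2 stood at -0.23 there (standard error 0.07). How these effects differ between regions was not tested, since the genes were chosen on them.

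Dusp5 lay lower after risperidone in striatum and hippocampus without a call. In striatum the values 5.76, 5.75, 5.64, 5.75 and 5.42 were all under the lowest vehicle rat at 5.84 (difference -0.39, standard error 0.13). In hippocampus the difference was -0.42 (standard error 0.13), with 7.35, 6.66, 6.91, 7.09 and 7.26 after risperidone and 7.13 to 7.84 after vehicle. Dusp1 differed by -0.49 in frontal cortex (standard error 0.16), with overlap, and by -0.03 and -0.06 in hippocampus and striatum. Groups that did not overlap, with all risperidone rats lower, numbered 3 of the 9 in frontal cortex (2 of Dusp6, and Etv5) and 3 in striatum (Dusp5, Spry3 and Etv5), where 2.77% and 2.59% of all probe sets had this. In hippocampus there were none, where 1.31% of all had it.

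With haloperidol the same genes lay mostly below vehicle, and fewer passed the threshold. In frontal cortex 8 of 9 were below 0 (median -0.23, against -0.04 over all) and 1 passed as lower, where 0.124% of all probe sets did. In striatum 8 of 9 were below 0 (median -0.32, against -0.02 over all) and 1 passed as lower, where 0.296% did. In hippocampus 8 of 9 were below 0 (median -0.26, against 0.00), and limma called neither a member nor any other probe set (0%), while 699 of the 18609 had an unadjusted p under 0.05. Groups without overlap, all haloperidol rats lower, numbered 2 in frontal cortex, 2 in striatum and none in hippocampus, where 2.73%, 2.64% and 0.854% of all probe sets had this.

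The probe set called in frontal cortex was Dusp6 1377064, with 9.03, 8.93, 8.52, 8.47 and 8.43 after haloperidol and a difference of -0.62 (standard error 0.14). All 5 values lay under the lowest vehicle rat at 9.15. The call was lost without any of 7 rats (haloperidol 3, 4 and 5, vehicle 1, 3, 4 and 5), with differences from -0.71 to -0.56. The other Dusp6 probe sets stood at -0.49 and -0.63 and were not called. Dusp1 gave 8.85, 8.73, 8.38, 8.61 and 8.78, under the lowest vehicle rat at 8.92, with a difference of -0.63 (standard error 0.16) and no call. Etv5 stood at -0.23 (standard error 0.10).

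In striatum the called probe set was that of Spry3. Haloperidol rats read 7.22, 7.14, 7.05, 7.29 and 7.28, under the lowest vehicle rat at 7.45, with a difference of -0.37 (standard error 0.09, 1.30-fold lower). Without any of 8 rats (haloperidol 2, 3 and 5 and each vehicle rat) the call was lost, with differences from -0.40 to -0.34. Dusp5 values of 5.70, 5.72, 5.84, 5.78 and 5.73 did not overlap with vehicle (difference -0.30, standard error 0.13), though the highest, at 5.8352, came next to vehicle replicate 1 at 5.8367. These haloperidol values too lay under the limit of 5.883. Etv5 stood at -0.32 (standard error 0.10), and its highest haloperidol rat, at 8.35, lay within the vehicle range that began at 8.20. In hippocampus Dusp5 had the difference farthest below 0, at -0.51 (standard error 0.13). In the fit without the arrays high in neighboring-tissue markers, described next, it was -0.58 and passed. That fit left out haloperidol replicate 1, whose Dusp5 value of 7.29 stood above the others (6.84 to 6.96). Dusp5 was not called in any fit with a single rat left out. The share of all probe sets called without these arrays was not taken, so nothing is read from this call. Spry2 lay above vehicle by 0.16 (standard error 0.07).

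Some drug arrays were higher in markers of neighboring tissue than the vehicle arrays of the same region. In frontal cortex the summed log2 level of the 5 measured olfactory bulb markers (of 8 listed) was 29.6 to 31.3 in vehicle rats, 30.3 to 37.9 with haloperidol and 31.4 to 45.1 with risperidone. In striatum the sum of the 6 measured pyramidal neuron markers (of 7 listed) was 39.1 to 42.5 in vehicle rats, 41.3 to 47.7 with haloperidol and 39.7 to 51.0 with risperidone. A single list of such markers was used for each region. In 10 arrays, all from drug-treated rats, the mean of these markers (of meningeal markers in hippocampus) exceeded the median of the region by over 0.5. In the fit without them, the frontal cortex differences after risperidone were -0.68 and -0.74 for Dusp6 1387024 and 1377064 and -0.55 for Etv5, and the striatal ones -0.82 for Etv5, -0.56 for Spry3, -0.62 for Dusp6 1387024 and -0.66 for 1377064, and all were still called, as they were with the marker mean as a covariate. The genes were chosen on these differences and all 10 arrays came from drug-treated rats, so calls kept in these fits are a description only. Dusp5 in hippocampus after risperidone moved from -0.42 to -0.24 in the fit without these arrays. In frontal cortex Dusp5 moved from -0.07 to -0.26 in that fit and to -0.34 with the covariate, and Dusp1 in striatum from -0.06 to -0.20 and to -0.18, none of them called. The calls after haloperidol were lost in that fit, with -0.57 for Dusp6 1377064 in frontal cortex and -0.34 for Spry3 in striatum. The call of Dusp6 1382778 in frontal cortex after risperidone was lost as well (-0.77). Scores of endothelial markers (mean log2 deviation from the region's arrays) after risperidone were -0.54 to 0.06 against -0.02 to 0.35 for vehicle in frontal cortex. In striatum they were -0.44 to 0.09 against 0.01 to 0.29. In hippocampus, where no member was called, they were -0.35 to 0.05 against 0.01 to 0.28. Oligodendrocyte markers in striatum were -0.25 to 0.26 after risperidone against -0.31 to 0.01 for vehicle. In frontal cortex the scores of oligodendrocyte markers were -0.16 to 0.55 after haloperidol against -0.57 to 0.05 for vehicle. The summed level of the 8 striatal markers there was 67.1 in risperidone replicate 1, at most 59.7 in the other risperidone rats and at most 61.9 in vehicle rats. Choroid plexus markers were not used to pick the 10 arrays. Their striatal scores were -1.54 to 2.79 for vehicle, -1.49 to 2.67 with haloperidol and -1.32 to 1.97 with risperidone. In hippocampus they were -0.83 to 0.73, -0.73 to 0.66 and -0.60 to 2.63 in the same order. The part of the choroid plexus, endothelial, oligodendrocyte and striatal markers in the results was not tested.

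The wider ERK pathway was described with a list of 73 other genes, of which 54 were tested with 1 probe set each. The list was written with earlier results of these data known, so neither its counts nor its p-values are independent evidence. After risperidone 3 of the 54 passed as lower in frontal cortex and 3 in striatum, and none passed as higher. Over all genes 198 passed as higher and 140 as lower in frontal cortex, and 102 and 205 in striatum. In frontal cortex Shc3, a neuronal adaptor that couples receptors to Ras, differed by -0.35 (standard error 0.09, adjusted p = 0.0182). Rps6ka3, the ERK-activated kinase RSK2, differed by -0.33 (standard error 0.09, adjusted p = 0.0335), and Ets1, an ETS transcription factor that ERK phosphorylates, by -0.38 (standard error 0.12, adjusted p = 0.0421). For Shc3 and Rps6ka3 no risperidone rat reached the lowest vehicle rat, and the groups overlapped for Ets1. Leaving out each of the 10 rats in turn, the calls held in 6, 4 and 4 cases in the same order, with adjusted p up to 0.0624, 0.107 and 0.145. The share called was 5.56% of the list against 3.3% of the 10248 genes tested, with medians of -0.02 and 0.03.

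In striatum Rps6ka3 fell by 0.39 (standard error 0.09, adjusted p = 0.0115), Dusp14, a phosphatase of the same family as the Dusp genes above, by 0.35 (standard error 0.09, adjusted p = 0.0219) and Ets1 by 0.38 (standard error 0.12, adjusted p = 0.0488). The groups overlapped for all 3. Of the list 5.56% was called against 3% of all genes, with medians of -0.04 and -0.02. Rps6ka3 lost its call without risperidone replicate 3 (-0.26), while the calls of Dusp14 and Ets1 held in 6 and 2 of 10 cases. In the fit without the arrays high in neighboring-tissue markers all 3 calls were lost, at -0.24, -0.19 and -0.27. After risperidone in hippocampus, where 0.117% of all genes were called, and after haloperidol in any region, where 0.146%, 0% and 0.263% were called in frontal cortex, hippocampus and striatum, no gene of the list passed in limma. At an unadjusted p under 0.05 in limma the list had 12, 6 and 13 genes after risperidone in frontal cortex, hippocampus and striatum (22.2%, 11.1% and 24.1% of the list, against 23.9%, 16.3% and 21.4% of all genes). After haloperidol it had 8, 1 and 11 (14.8%, 1.85% and 20.4%, against 12.6%, 3.45% and 14.9%). None of the ligands, receptors or members of the Ras, Raf, MEK and ERK relay itself was called after either drug.

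**Figure D5:**
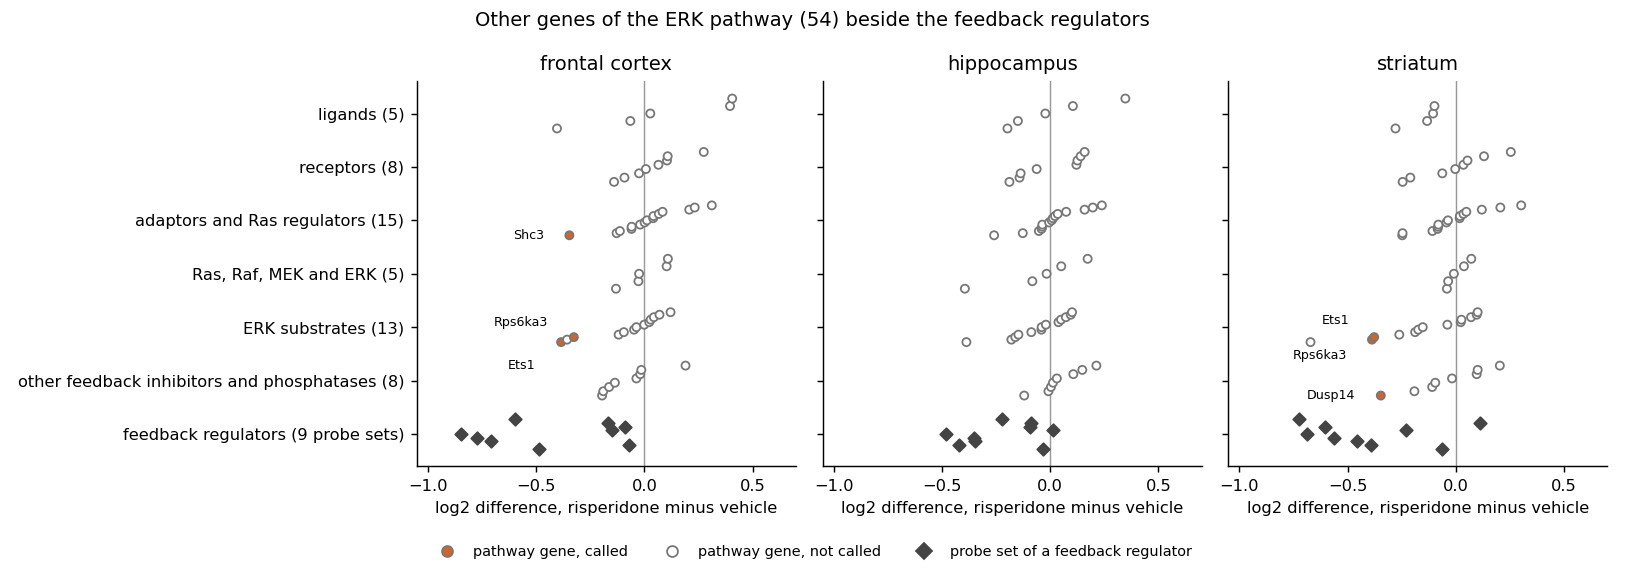
Log2 difference of risperidone from vehicle for 54 other genes of the ERK pathway, in rows by role with the number of genes in parentheses, and for the 9 tested probe sets of the feedback regulators in the lowest row. Filled circles are the pathway genes past the threshold, which were Shc3, Rps6ka3 and Ets1 in frontal cortex and Rps6ka3, Dusp14 and Ets1 in striatum.

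Between regions of vehicle rats, genes of the pathway list passed in both directions. With arrays centred, 14 of the 54 genes were higher and 17 lower in striatum than in frontal cortex (57.4% of the list, 43.9% of all genes). In hippocampus 11 were higher and 12 lower than in frontal cortex (42.6% against 29.6%), and 14 were higher and 15 lower in striatum than in hippocampus (53.7% against 43.8%). As deposited, 31, 31 and 34 genes passed. Toward striatum the differences from frontal cortex with the smallest p were 4.19 for Rasgrp2, a Ras and Rap activator (adjusted p = 1.28e-27), 2.58 for the ligand Tgfa (2.69e-19), 1.88 for the ERK-activated kinase Rps6ka5 (2.75e-17) and 0.39 for the phosphatase Ptpn11 (5.83e-10). In the other direction they were -0.68 for the Ras-inactivating Rasa1 (1.38e-15), -1.80 and -0.89 for the calcium-sensitive Ras activators Rasgrf2 (1.51e-15) and Rasgrf1 (2.94e-15), and -4.31 for the neurotrophin Bdnf (4.31e-16). With the tested probe set of lowest mean, as deposited, Rasgrp2 differed by 2.27 and Ptpn11 by 0.25, which was not called.

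In hippocampus, against frontal cortex, the receptor Fgfr1 was higher by 1.27 (adjusted p = 6.06e-19), the scaffold Ksr1 by 1.71 (9.43e-19), the receptor inhibitor Errfi1 by 0.43 (1.22e-05) and the ERK-activated kinase Mknk1 by 0.27 (9.75e-05). Differences in the other direction were -0.91 for Rps6ka3 (2.41e-12), -0.87 for Dusp14 (7.21e-12), -0.61 for the ERK phosphatase Dusp7 (9.42e-11) and -0.41 for Rasa1 (3.83e-09), which did not pass as deposited. Striatum exceeded hippocampus by 4.80 for Rasgrp2, 1.98 for Rps6ka5, 2.22 for Tgfa and 1.26 for Dusp14, and the differences were -2.09 for Ksr1, -1.27 for Fgfr1, -2.31 for Rasgrf2 and -5.08 for Bdnf. With the probe set of lowest mean, as deposited, the differences were 1.97 for Rasgrp2 and -2.38 for Fgfr1, and Fgfr1 was higher in hippocampus than in frontal cortex by 2.10. Of the 8 other feedback inhibitors and phosphatases tested, 2 were higher and 4 lower in striatum than in frontal cortex, and 1 was higher and 5 lower in hippocampus than in frontal cortex. Against hippocampus 2 of the 8 were higher in striatum and 1 lower.

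Likeness from array to array was measured after the mean of its region and treatment group was taken from each value, by Pearson's r over the 45 arrays, which share 15 rats. The genes closest to Dusp1 were Fos, an activity-induced transcription factor (r = 0.72), Sstr1 (0.71) and Ppm1l (0.70). For Dusp5 they were Dnajb5 (0.66), Ampd2 (0.63) and Ptk2b (0.62), and for Dusp6 Daglb (0.71), Ddit3 (0.68) and Pofut2 (0.66). For Etv5 they were C1h19orf12 (0.65), Atg5 (0.65) and Cap2 (0.63). Of the Sprouty genes, Spry1 was closest to Ypel5 (0.75), Kif2a (0.71) and Relch (0.69), and Spry2 to Cebpg (0.70), Srp54a (0.68) and Micu3 (0.66). Spry3 was closest to Prr14l (0.72), Rbm33 (0.71) and Rsrp1 (0.71), Spry4 to Lrrc37a (0.70), U2af2 (0.68) and Mettl7b (0.65), and Dusp4 to Rftn1 (0.66), Tmprss2 (0.66) and Phgr1 (0.64). No member was among the 3 nearest genes of another.

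Against the activity-induced transcription factor genes, which respond to calcium and to ERK, each member had coefficients of its own. Dusp1 had an r of 0.63 with Junb, 0.47 with Nr4a1 and 0.31 with Egr1, beside the 0.72 with Fos, and 0.15 with both Egr2 and Egr4. With Fos, the Dusp6 probe sets 1387024, 1377064 and 1382778 had 0.41, 0.43 and 0.14. Etv5 had 0.22 with Fos and 0.37 with Egr1. Spry3 had 0.07 with Fos, 0.36 with Junb, 0.39 with Egr1, 0.42 with Nr4a1 and -0.11 with Egr2. Spry4 had -0.16 with Fos and 0.42 with Egr1. Spry2 had 0.44 with Fos and 0.34 with Junb, and Dusp5 had -0.06 and 0.25 in that order. These coefficients are over the same arrays and are given as a description, and not every pair is listed.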

How the data were processed

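Total RNA of 3 brain regions from 15 rats was measured on 45 arrays, and groups follow the sample labels. The authors deposited linear intensities made by RMA in R 2.7.2 (per the submitters' processing notes), a method that subtracts background, equalizes the distribution of arrays and combines the probes of each set. Array medians still differed between hippocampus and the other regions, and it is not stated whether all regions were normalized together. Log2 values were taken here from the deposited intensities. Arrays have no read depth, and the number of rats (5 per group) limits the precision. Median intensities were compared between arrays, and no 2 arrays of a group held the same values. Probe sets were named through the platform annotation, and control probe sets were left out.

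All 18609 probe sets with a mean at or above the 40th percentile were fitted at once with limma 3.58.1 in R 4.3.3, with 1 mean for each of 9 groups and a random effect of the rat (consensus correlation 0.226, with 39.9 degrees of freedom). Figures were drawn with matplotlib 3.10.9 under Python 3.11.15. P-values were adjusted by Benjamini-Hochberg within a comparison, and a call needed both 1.2-fold or more and an adjusted p under 0.05. Of the probe sets tested, 14116 carry 1 gene, 306 several and 4187 none. For a pathway gene, the tested probe set with the highest mean was used. The method was tested on simulated data.

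The members and lists were chosen with earlier results of these data known, and no p is given for a member after a drug. Named pathway genes are all called ones where 6 or fewer were called, and otherwise the 4 with the smallest p in each direction, and for each member the 3 genes most like it. Deviations of the same rat correlated between its regions with r from 0.01 to 0.67 (median 0.35, 44 of 45 pairs over 0.1), and the rat is given by the labels. Alternatives were the block, the arrays fitted, the filter, an offset of 16, centring, quantile normalization, ordinary statistics, neighboring-tissue arrays or markers, the choice of probe set, and each rat left out.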

Additional observations from a re-analysis of the deposited data

Results flagged for a closer look

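Within each of 117 groups of 5 rats (13 probe sets in 9 groups), a rat was looked for whose gap to its nearest neighbor exceeded 0.71 of the group's range, and 8 groups had one, where chance gives about 1 in 20. In vehicle rats, Dusp1 read 8.84 in the hippocampus of replicate 1 (the others 8.02 to 8.20), and Etv5 8.97 in the frontal cortex of replicate 3 (the others 8.54 to 8.62). Dusp6 1382778 read 8.11 in the frontal cortex of vehicle replicate 2 (the others 9.47 to 10.01), and Dusp6 1387024 read 8.02 in the striatum of the same rat (the others 8.55 to 8.63). After risperidone, Dusp6 1377064 read 8.97 in the frontal cortex of replicate 1 (the others 8.33 to 8.50). Dusp5 read 7.29 in the hippocampus of haloperidol replicate 1 (the others 6.84 to 6.96). The weak second probe set of Etv5 read 5.32 in the frontal cortex of haloperidol replicate 5 (the others 5.19 to 5.23) and 5.39 in that of risperidone replicate 5 (the others 5.02 to 5.12).

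Spry2 stood above the vehicle mean in the hippocampus of every haloperidol rat (by 0.16 on average) and below it in the striatum of every one (-0.12 on average). The effects are 0.27 apart, and this difference between regions was not tested. It was the only such case found in a search over the 13 probe sets, both drugs and all pairs of regions. The share over all probe sets was not taken, and no probe set was called in hippocampus after haloperidol. Nothing is read from this case.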

How the results depend on the processing

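Over all alternatives, counts of called genes stayed within 1.5 times their value in 298 cases and left that range in 59. Single differences stayed the same in 1656 cases, lost the call in 62, gained it in 5, reversed in 7 and moved in 2. Between regions and for pathway genes, the same means that direction and call were kept. For a member after a drug, it means only a shift smaller than the standard deviation among rats. Calls lost by members after a drug are therefore not among the 62.

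Between regions, without a filter on low values 11 of all 13 member probe sets were called for striatum minus frontal cortex. With centred arrays 3 of the 9 tested were called for hippocampus minus frontal cortex, where 31.7% of all probe sets passed. For the other member counts of this section the share over all probe sets was not taken, and nothing is read from them. Directions reversed for small differences. Dusp5, striatum minus frontal cortex, became -0.10 with the marker covariate and dropped under 0 without vehicle replicate 5 (-0.0035 to 0.061 with a rat left out). With centred arrays, hippocampus minus frontal cortex became -0.12 for Spry2, -0.056 for Spry4 and -0.20 for Etv5, and striatum minus hippocampus became 0.046 for Spry2 and 0.12 for Spry3. The rat as a fixed replicate block and no replicate block changed no count between regions by over 1.5 times.

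After haloperidol in frontal cortex, 0 members were called without the rat as a block, with the label number as a replicate block, with only the arrays compared, without a filter, with quantile normalization, with ordinary statistics, without the 10 arrays high in neighboring-tissue markers and with the marker covariate (0 to 2 with a rat left out). In striatum, 0 were called with the label number as a replicate block, with only the arrays compared, with quantile normalization, without the 10 arrays and with the covariate (0 to 1 with a rat left out). In hippocampus 1 was called without the 10 arrays.

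After risperidone in striatum, 1 member was called with the label number as a replicate block (3 to 6 with a rat left out), and in hippocampus 0 to 2 with a rat left out. Pathway genes called after risperidone in frontal cortex numbered 1 with that replicate block, 1 with the filter at the 60th percentile, 0 with the covariate and 5 with the probe set of lowest mean (0 to 5 with a rat left out). In striatum they numbered 0 with that replicate block, 0 with only the arrays compared, 0 without the 10 arrays and 1 with the covariate (1 to 7 with a rat left out). With a rat left out they numbered 0 to 1 in hippocampus after risperidone and in frontal cortex after haloperidol.

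Rats of the same label number in different treatments are different animals. Deviations of a drug rat and the vehicle rat of the same number correlated with r from -0.38 to 0.55 (30 pairs, median -0.10, 6 over 0.1). Such a spread cannot decide whether the numbers mark a shared order of handling, which was not tested. The cause of these changes was not tested.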
